A study of Homo sapiens with 6 samples.

Results

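Long intergenic noncoding RNAs that carry a LINC number were followed in PC9, an established line of human lung adenocarcinoma cells, after an antagomir against tsRNA-5001a and after a negative-control antagomir. The knockdown group and the control group had 3 libraries each, all from the same line and all treated with an oligonucleotide. Transfer RNAs can be cleaved into small RNAs, the tsRNAs, and antagomirs are modified antisense oligonucleotides used to block small RNAs. Gene counts do not read the tsRNA itself, so the success of the knockdown is unknown here. Nothing in the labels ties libraries to separate cultures, and the p-values therefore reflect library-to-library spread only, possibly technical.

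The members, selected on their deposited counts, were 171 of the 1797 LINC-numbered rows in a table of 58174 genes. A row was a member when it had at least 150 counts over the 6 libraries and more than 1 count in at least one control library, and LINC00094 was left out by name. Of the 1797 rows, 1127 were at 0 in all libraries and 496 had a total of 1 to 149 counts. The members just above the total were LINC00944 and LINC00592, at 152 counts each, and the rows just below it were LINC01731 at 145 and LINC02246 at 142. LINC01647 had 157, 129 and 204 counts in knockdown libraries 1 to 3, LINC01447 had 110, 77 and 125, and both were at 0 in all 3 control libraries, so neither was a member. LINC00094 had 11.9, 10.3 and 9.82 CPM (counts scaled to the TMM-adjusted library total) in knockdown libraries, against 31.04, 40.5 and 23.6 CPM in control libraries. The rule thus reads the control counts, drops genes silent in the control and drops a gene that was lower after knockdown. Its total also sums the knockdown counts, so a rise after knockdown can carry a gene over the minimum. Most of the 375 counts of LINC00513, the 275 of LINC02331 and the 159 of LINC00052 came from knockdown libraries. Counts of members in each direction therefore describe the chosen set and are no test of it.

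LINC RNAs are mostly transcribed by RNA polymerase II, capped, spliced and polyadenylated like messenger RNAs, but most have no long open reading frame. Many are low in abundance and some are turned over quickly in the nucleus, where the RNA exosome is one of the degrading machineries. Some act on a neighbouring gene or as scaffolds for chromatin proteins, a few encode micropeptides, and several have been studied in lung cancer cells. In bulk RNA, fewer cells that express a gene and less RNA per cell cannot be told apart.

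The libraries held 32342017 to 40066223 counts, and members took 0.118, 0.129 and 0.129% of counts in knockdown libraries, against 0.106, 0.0990 and 0.102% in control libraries. Epithelial markers were abundant, at a sum of 11100 to 14100 CPM in knockdown libraries and 13000 to 14500 CPM in control libraries. Fibroblast markers summed to 36.9 to 53.5 CPM in knockdown libraries and 39.3 to 46 CPM in control libraries, with LUM at 0. Immune markers summed to 61.3 to 77.6 CPM in knockdown libraries and 58.8 to 70.8 CPM in control libraries, and endothelial markers to 31.3 to 40.6 CPM in knockdown libraries and 20.7 to 37.3 CPM in control libraries. No listed marker passed the edgeR test at an adjusted p of 0.05, and the part of other cells in the results was not tested.

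LINC00513 and LINC02331 rose after knockdown, LINC00513 by 7.26-fold and LINC02331 by 2.70-fold, and 0 members fell past the test. These 2 members of 171 are 1.17%. Over all 19040 tested genes the share past edgeR's test was also 1.17%, with 1.1% higher and 0.0735% lower, so the members' share was at the background. All 171 members passed the filter on low counts. At an unadjusted p under 0.05 by edgeR, 36 members were higher and 1 was lower, beside 9.77% of all tested genes higher and 6.71% lower. DESeq2 called 12 members higher and 0 lower.

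LINC00513 (ENSG00000233559), reported in lupus studies to promote type I interferon signalling, lies on the plus strand at chr7:130853720-130928649 in the deposited table, on coordinates that match GRCh38. It has 5 exon blocks and 1616 exonic bases. It had 3.14, 2.68 and 2.87 CPM in knockdown libraries 1 to 3, against 0.561, 0.279 and 0.340 CPM in control libraries 1 to 3. All knockdown libraries stood above all control libraries. The means were 2.90 ± 0.234 CPM in knockdown libraries and 0.394 ± 0.149 CPM in control libraries (SD, n = 3 each; edgeR). This is a log2 fold change of 2.86 (SE 0.31), at an adjusted p of 0.00638 by edgeR's quasi-likelihood test. The counts behind these values were 119, 91 and 122 in knockdown libraries, against 21, 9 and 13 in control libraries.

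On the opposite strand, the span of LINC00513 holds the microRNA genes MIR29A and MIR29B1 and overlaps the noncoding gene AC016831.1. AC016831.1 had 107, 87 and 113 counts in knockdown libraries, against 53, 55 and 63 in control libraries (log2 fold change 0.75, edgeR adjusted p = 0.160). Whether the counting used strand is not given in the sources used here, so reads of overlapping genes on opposite strands may be mixed. LINC00513's nearest protein-coding gene, KLF14, a transcription factor of the Kruppel-like family, lies 119659 bases away and was at 0 counts in all 6 libraries.

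LINC02331 (ENSG00000235269) lies on the minus strand at chr14:53768942-53850882 and overlaps no other gene of the table. It had 1.85, 1.77 and 1.74 CPM in knockdown libraries, against 0.775, 0.651 and 0.550 CPM in control libraries. The knockdown libraries lay within a narrow range, above every control library. This is a log2 fold change of 1.43 (SE 0.27), at an edgeR adjusted p of 0.0490. Leaving out any single library took its adjusted p above 0.05, and it passed the test in 4 of 15 alternatives, with edgeR, limma or DESeq2 adjusted p-values from 0.0127 to 0.195. LINC00513 passed in 15 of 15, with log2 fold changes of 2.59 to 3.20. The protein-coding gene nearest to LINC02331 is BMP4, a secreted growth factor of the TGF-beta family, at a distance of 98854 bases. BMP4 had 10.04 ± 3.00 CPM in knockdown libraries and 11.8 ± 1.102 CPM in control libraries (SD, n = 3 each; edgeR adjusted p = 0.644).

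DESeq2 called 12 members (7.02%), where it called 3.68% of all tested genes, 2.54% higher and 1.14% lower. They include the 2 that edgeR calls. The other 10 had edgeR adjusted p-values of 0.0540 to 0.150, and in all 12 the 3 knockdown libraries stood above the 3 control libraries. Those of the 12 outside the rule for named genes are described because of their DESeq2 call, after their values were seen.

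**Figure D1:**
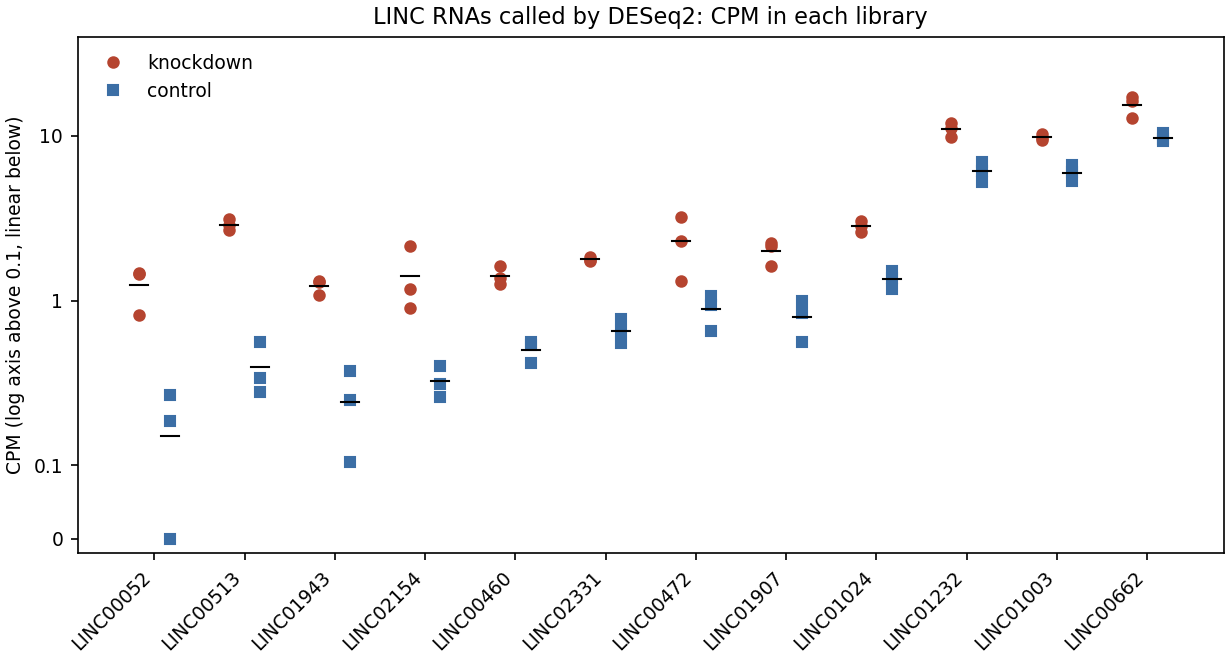
CPM of the 12 LINC RNAs that DESeq2 calls, in each library, on an axis that is logarithmic above 0.1 CPM and linear below it, ordered by edgeR log2 fold change. Red circles are the 3 knockdown libraries, blue squares the 3 control libraries and black lines the group means; in every gene the knockdown circles lie above the control squares, and LINC00052 has 1 control library at 0.

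LINC00052, which has been studied in breast cancer, lies 279885 bases from its nearest protein-coding gene, the neurotrophin receptor gene NTRK3. LINC00052 had the largest log2 fold change of the members, 3.03 (SE 0.73), which missed the edgeR threshold (adjusted p = 0.112). Its counts were 31, 50 and 62 in knockdown libraries, against 10, 6 and 0 in control libraries, so the fold rests on few control counts. LINC02154, on the X chromosome, had 0.898, 2.15 and 1.17 CPM in knockdown libraries, against 0.401, 0.310 and 0.262 CPM in control libraries. Knockdown library 2 was the highest, and the groups did not overlap (log2 fold change 2.10, SE 0.43, edgeR adjusted p = 0.0673).

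LINC01943 had 1.32, 1.29 and 1.08 CPM in knockdown libraries, against 0.374, 0.248 and 0.105 CPM in control libraries. The groups did not overlap, and the log2 fold change of 2.33 (SE 0.45) missed the edgeR threshold at an adjusted p of 0.0540. It overlaps CYTOR, a noncoding RNA studied in carcinomas, on the opposite strand. CYTOR had 2749 counts over the knockdown libraries and 2739 over the control libraries (log2 fold change -0.08, edgeR adjusted p = 0.803). Of the 31-base words in LINC01943's exons, 43.7% also occur in other genes, most of them in AC017002.3, so its counts are uncertain.

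LINC00460, reported to promote growth and invasion of carcinoma cells, had 1.37, 1.27 and 1.62 CPM in knockdown libraries, against 0.535, 0.558 and 0.419 CPM in control libraries. All knockdown libraries were above all control libraries, with a log2 fold change of 1.49 (SE 0.30, edgeR adjusted p = 0.0616). LINC00472, whose span holds MIR30A and MIR30C2 and which is a reported growth suppressor in breast cancer, had 1.32, 3.24 and 2.30 CPM in knockdown libraries, against 0.936, 0.651 and 1.07 CPM in control libraries. The knockdown libraries spread more widely here than the control libraries did, and the test was missed (log2 fold change 1.36, SE 0.37, edgeR adjusted p = 0.150).

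The rest of the 12 had smaller folds, and LINC01232, LINC00662 and LINC01003 were also more abundant. They were picked by the DESeq2 call, so their separation does not describe abundant members in general. LINC01232 had 11.2, 11.98 and 9.82 CPM in knockdown libraries, against 5.24, 6.94 and 6.15 CPM in control libraries (log2 fold change 0.85, edgeR adjusted p = 0.0722). LINC00662, studied in lung and other cancers, had 12.8, 17.2 and 16.3 CPM in knockdown libraries, against 9.28, 9.61 and 10.4 CPM in control libraries (log2 fold change 0.66, edgeR adjusted p = 0.123). LINC01024, now named MALINC1 for mitosis-associated long intergenic noncoding RNA, had 2.85, 3.03 and 2.61 CPM in knockdown libraries, against 1.52, 1.36 and 1.18 CPM in control libraries. Its knockdown libraries were all above its control libraries, and the test was missed (log2 fold change 1.06, edgeR adjusted p = 0.0772). It overlaps PURA, which encodes a nucleic-acid-binding protein, on the opposite strand, and PURA was also tested (log2 fold change 0.23, edgeR adjusted p = 0.510). LINC01003 and LINC01907, the remaining members of the 12, had log2 fold changes of 0.71 and 1.33, with edgeR adjusted p-values of 0.1001 and 0.0945.

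Promoters were taken from RefSeq on GRCh38.p14, from 250 bases before to 50 bases after each gene's start, and 123 of the 171 members matched. They are shown for LINC00513, which rose, for LINC01943 and LINC00460 near the threshold, and for LINC01278, the most abundant member, whose level was close in both groups. Of the 12 members that DESeq2 calls, 8 had an entry. The first 3 shown are the 3 of these 8 that hold the motif TGANTCA, and LINC00472, LINC00662, LINC01003, LINC01024 and LINC01232 hold none. The capitals mark TGANTCA, a loose form of the AP-1 site TGACTCA with any base in the middle, TATAAA, the TATA box, and CCAAT, each on either strand, so that TTTATA and ATTGG are the same motifs read on the other strand.
LINC00513, chr7:130913214-130913513, plus strand: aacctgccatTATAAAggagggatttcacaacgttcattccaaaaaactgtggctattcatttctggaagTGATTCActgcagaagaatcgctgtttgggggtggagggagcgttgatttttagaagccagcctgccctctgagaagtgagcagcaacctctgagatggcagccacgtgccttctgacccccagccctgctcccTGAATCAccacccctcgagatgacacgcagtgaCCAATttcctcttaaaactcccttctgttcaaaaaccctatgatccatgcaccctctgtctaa
LINC01943, chr2:87459047-87459346, minus strand: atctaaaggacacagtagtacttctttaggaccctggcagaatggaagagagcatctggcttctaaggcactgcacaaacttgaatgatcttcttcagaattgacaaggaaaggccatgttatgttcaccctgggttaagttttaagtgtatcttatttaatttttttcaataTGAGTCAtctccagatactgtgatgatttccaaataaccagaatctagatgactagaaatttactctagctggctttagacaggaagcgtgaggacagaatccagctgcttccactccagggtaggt
LINC00460, chr13:106376314-106376613, plus strand: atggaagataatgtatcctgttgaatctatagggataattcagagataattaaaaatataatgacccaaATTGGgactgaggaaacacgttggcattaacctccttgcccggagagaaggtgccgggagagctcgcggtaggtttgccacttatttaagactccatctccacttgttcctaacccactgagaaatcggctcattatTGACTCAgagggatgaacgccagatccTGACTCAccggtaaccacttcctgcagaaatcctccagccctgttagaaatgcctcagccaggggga
LINC01278, chrX:63561046-63561345, minus strand: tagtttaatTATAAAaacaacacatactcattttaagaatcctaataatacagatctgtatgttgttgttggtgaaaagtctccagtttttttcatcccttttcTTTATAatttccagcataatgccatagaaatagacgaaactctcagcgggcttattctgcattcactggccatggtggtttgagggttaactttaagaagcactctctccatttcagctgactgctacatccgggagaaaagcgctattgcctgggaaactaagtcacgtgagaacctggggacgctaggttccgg
LINC00513 and LINC00460 hold TGANTCA at 2 places each, LINC01943 holds it at 1, and LINC01278 has none in this window. The matches of LINC00513 do not have the AP-1 letters TGACTCA on either strand and match only through the open middle base. The RefSeq start of LINC00513 lies inside the span given in the deposited table.

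TGANTCA, which reads the same on both strands apart from its middle base, was found in 17 of the 123 member promoters (13.8%) and in 7.76% of all 27305 RefSeq promoters. TGACTCA, searched on both strands after these matches were seen, was in 14 member promoters (11.4%) and in 4.92% of all promoters. Of the 35 matched members whose knockdown libraries all stood above the control libraries, 8 (22.9%) held TGANTCA and 5 (14.3%) held TGACTCA. The 8 were LINC00346, LINC00365, LINC00460, LINC00513, LINC00963, LINC01132, LINC01271 and LINC01943. For the 17 members with the motif the log2 fold change had a median of 0.40, at a median log2 CPM of 0.77, 14 of them were above 0 and 8 were higher without overlap. The 106 members without it had a median log2 fold change of 0.20 at a median log2 CPM of 1.42, with 78 above 0 and 27 higher without overlap, and the part of the lower abundance in that difference was not tested. Over all tested genes 55.9% were above 0 and 13.4% were higher without overlap. Among the 8, most counts of LINC00365, LINC00460, LINC00513 and LINC01943 came from knockdown libraries, so their rise helped them past the count minimum. The members with and without the motif are therefore described only, and their difference is no test of the motif. LINC01001 and LINC01002, both among the 17, share 90.9% and 77.6% of their 31-base words with other genes, so their counts are uncertain. Promoters of other lncRNAs were not searched as a set of their own.

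The other motifs were searched on both strands too. TATAAA was in 13% of members' promoters against 12% of all promoters, CCAAT in 43.1% against 35.7%, and GGGCGG, a GC box, in 47.2% against 44.6%. TGACGTCA, the cyclic AMP response element, was in 1.63% of members' promoters against 1.98% of all, and TGATGCAA, an amino acid response element core, in 0 of 123 against 0.923% of all. A match of letters describes the sequence and does not show that a factor binds there.

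Over all 171 members the log2 fold changes had a median of 0.25, with a 25th to 75th percentile of -0.00 to 0.59 and a range of -0.63 to 3.03. A value above 0 was found for 127 members (74.3%) and for 55.9% of all tested genes, whose median was 0.05. A log2 fold change of at least 1 was reached by 13 members, or 7.6%, against 5.52% of all tested genes, and 0 members were at -1 or less, against 1.49% of all tested genes. The knockdown libraries all stood above the control libraries in 48 members (28.1%) and all below them in 7 (4.09%). Over all tested genes the groups did not overlap in 24.3%, with 13.4% higher and 10.8% lower.

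Other genes of lncRNA type were close to the members. The 2811 of them that were tested had a median log2 fold change of 0.29, with 72.7% above 0, 22.6% higher without overlap and 2.95% lower. The 14192 protein-coding genes had a median of 0.03. Whether members differ from other lncRNAs was not tested, and the members' median lies below that of the other lncRNAs. These sets differ in abundance, at a median log2 CPM of 1.15 in members, -0.11 in other lncRNAs and 3.72 in all tested genes. Their pooled medians are therefore not compared at like levels. The 104 tested LINC-numbered rows outside the rule, most of them below the count minimum, had a median of 0.50.

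**Figure D2:**
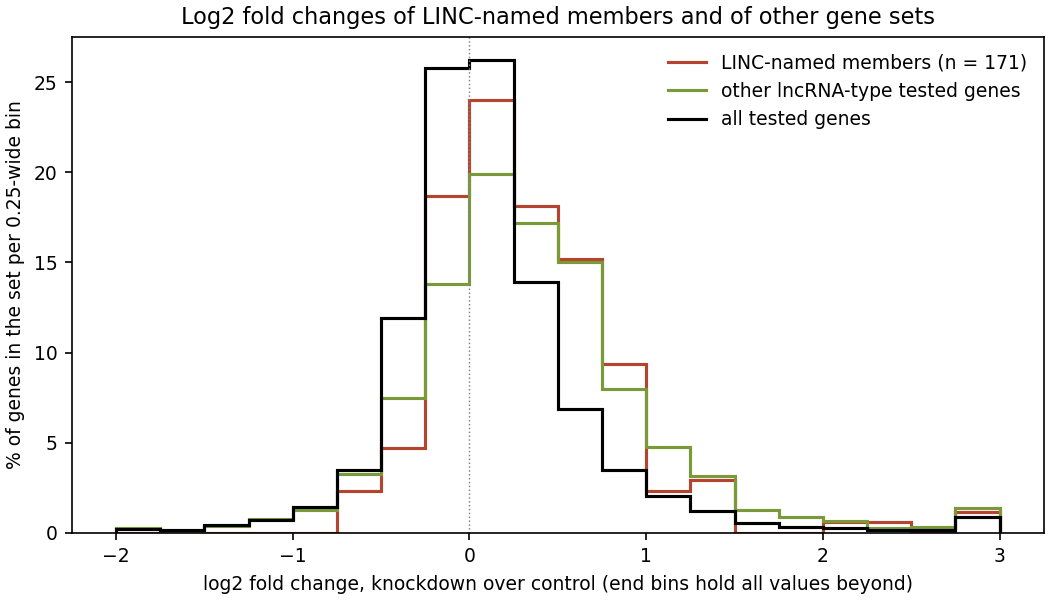
Distribution of the log2 fold change, knockdown over control, for the 171 LINC-named members (red), the 2811 other tested genes of lncRNA type (green) and all 19040 tested genes (black), as the percent of each set per bin. By median the members and the other lncRNAs lie to the right of all tested genes, at 0.25, 0.29 and 0.05. The end bins hold all values beyond them.

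The size of the log2 fold change went with abundance. Among the 28 members under a log2 CPM of 0 the median was 0.70, and among the 50 from 0 to 1, which hold LINC00513 and LINC02331, it was 0.43. It was 0.20 in the 37 members from 1 to 2 and 0.01 in the 25 from 2 to 3. In the 24 members from 3 to 5 it was 0.18, and in the 7 members at 5 or more it was 0.07. All tested genes ran the same way, from a median of 0.32 under a log2 CPM of 0 to -0.05 at 5 or more. In the ranges between, their medians were 0.25, 0.20, 0.11 and 0.04. The members' median was thus equal to theirs from 1 to 2 and lower from 2 to 3. Other lncRNAs ran from 0.38 to 0.04 over the same range, with 0.32, 0.26, 0.19 and 0.09 between. The minimum of 150 counts in the rule keeps members above the lowest abundances. Near that minimum, members low in control libraries pass only with more counts in knockdown libraries. Under a log2 CPM of 0 their median log2 CPM was -0.33, against -0.96 in other lncRNAs, so the 2 sets are not comparable in that range. Across the 171 members, log2 fold change and log2 CPM had a Pearson r of -0.29 and a Spearman rho of -0.31. These points share the same 6 libraries, and both measures come from the same counts.

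**Figure D3:**
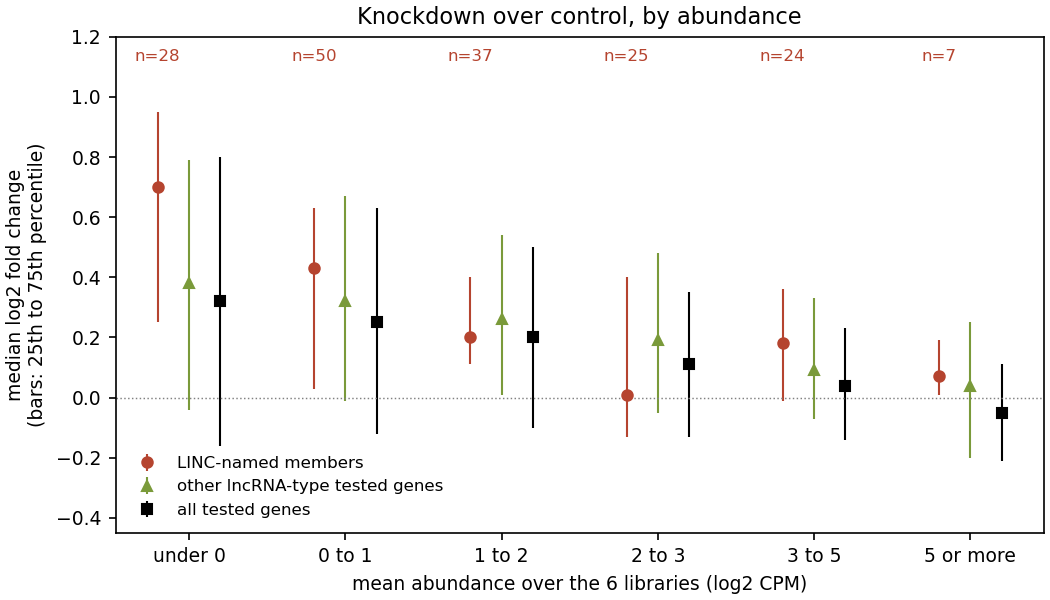
Median log2 fold change, knockdown over control, by mean abundance over the 6 libraries (log2 CPM), with bars from the 25th to the 75th percentile, for members (red circles, with their number above), other lncRNA-type genes (green triangles) and all tested genes (black squares). The members' median was 0.70 in the lowest range and 0.07 in the highest, and all 3 sets are higher on the left than on the right.

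The scale chosen moved these values. In the deposited TPM, a level per transcript length, the median log2 ratio of group means was 0.49 over the members and 0.27 over all tested genes, with a pseudocount of 0.1 TPM. With counts scaled by library size alone the medians were 0.38 over the members and 0.17 over all tested genes. The members' median thus stood above that of all tested genes by 0.20 on the TMM scale, 0.22 in TPM and 0.21 by library size alone. In TPM, 84 members (49.1%) were higher without overlap and 1 (0.585%) lower, against 27% and 2.95% of all tested genes. Other genes of lncRNA type had a median log2 ratio of 0.47 in TPM, close to the members' 0.49, with 33.3% higher and 0.996% lower. With library size alone 7 members passed the edgeR test (4.09%), all higher, against 1.63% of all tested genes higher and 0.0473% lower (1.68% in all). The rule's total includes knockdown counts, so this larger share is no test of the members.

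Summed over the 171 members, the CPM were 1163, 1231 and 1209 in knockdown libraries, against 1087, 1063 and 1063 in control libraries, so the groups did not overlap. Without the 5 most counted members the sums were 750, 805 and 790 CPM in knockdown libraries, against 670, 673 and 665 CPM in control libraries. The median over members of the log2 ratio to the control mean was 0.25, 0.22 and 0.24 in knockdown libraries, against 0.03, 0.01 and -0.03 in control libraries. The 3 knockdown libraries were thus close to each other. Of the 171 members, 38, 47 and 40 had their highest CPM in knockdown libraries 1 to 3, against 17, 20 and 9 in control libraries 1 to 3.

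More LINC-numbered rows had a count in the knockdown libraries, and so did more rows of other kinds. At an equal depth of 32342017 counts, 465, 493 and 513 of the 1797 rows were expected to have a count in knockdown libraries, against 417, 386 and 412 in control libraries. As a share of rows this was 25.9 to 28.5% in knockdown libraries and 21.5 to 23.2% in control libraries. For the 13779 other rows of lncRNA type the share was 38.9 to 41.8% in knockdown libraries and 33.9 to 35.9% in control libraries. For all 58174 rows it was 46.5 to 48.5% in knockdown libraries and 44 to 44.6% in control libraries. The groups overlapped in none of these 3 sets, and only the total count was made equal. The nuclear lncRNA MALAT1 had 70.2, 259 and 99.7 CPM in knockdown libraries, against 65.2, 89.7 and 84.7 CPM in control libraries, so knockdown library 2 stood apart for it. Among the knockdown libraries, library 2 also had the highest summed member CPM and the most members at their highest within the group, 62 against 53 and 56, but the lowest median log2 ratio. In the fit without knockdown library 2 the members' median log2 fold change was 0.27, beside 0.25 with all 6 libraries. In that fit 125 members were above 0, and LINC00513 was the only member past the edgeR test.

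**Figure D4:**
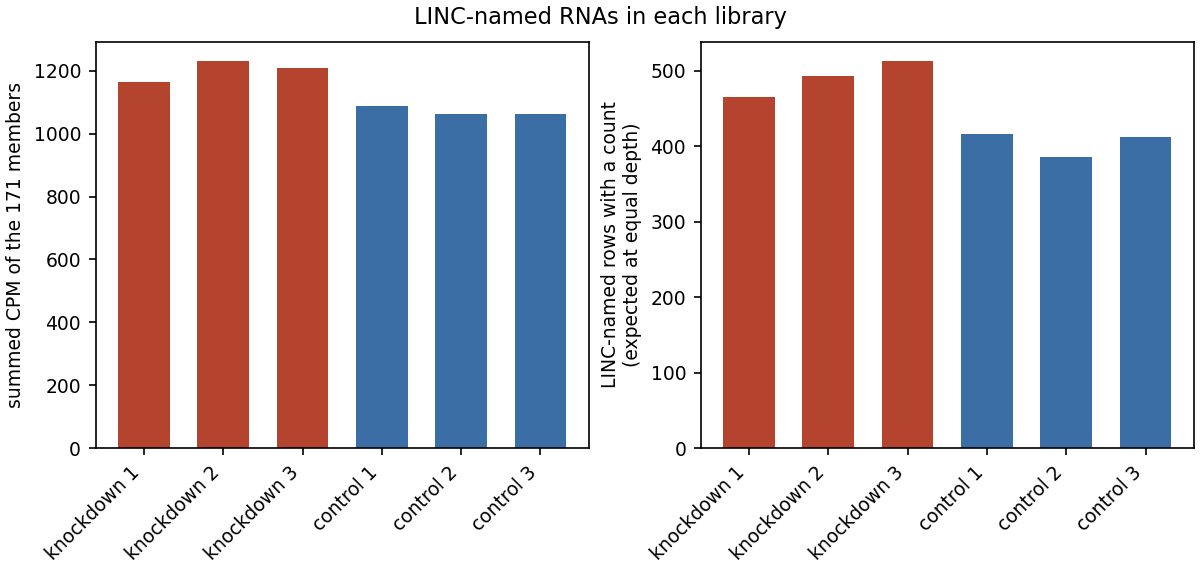
Left, summed CPM of the 171 members in each library; right, the number of all 1797 LINC-numbered rows expected to have at least 1 count at an equal depth of 32342017 counts. Bars are single libraries, red for knockdown and blue for control, and every red bar is taller than every blue bar in both panels.

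Levels between members are compared in TPM, averaged over the 6 libraries. Members ranged from 0.218 to 117 TPM with a median of 2.99 TPM, against a median of 15.8 TPM for protein-coding genes. Of the 171, 28 were at 10 TPM or more, 122 from 1 to under 10 TPM and 21 under 1 TPM. LINC01278 led at 117 TPM, followed by LINC00116 at 67.8 TPM, LINC00969 at 61.8 TPM, LINC00942 at 49.6 TPM, LINC01234 at 42.1 TPM and LINC01578 at 39.5 TPM. None of these 6 passed the edgeR test.

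LINC01278 had 228, 221 and 234 CPM in knockdown libraries, against 221, 215 and 213 CPM in control libraries. The groups overlapped, and the test was missed (log2 fold change 0.07, SE 0.10, edgeR adjusted p = 0.762). In TPM, which is scaled to the total of all length-corrected counts, it averaged 129 ± 4.58 in knockdown libraries and 105 ± 9.22 in control libraries (SD, n = 3 each). It took 19.6, 17.9 and 19.4% of the members' counts in knockdown libraries, against 20.4, 20.2 and 20.1% in control libraries. Part of its span, at chrX:63343227-63561071 on the minus strand, overlaps the protein-coding gene SPIN4 on the same strand.

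LINC00116 is now MTLN, which encodes mitoregulin, a micropeptide of the inner mitochondrial membrane. It had 18.0, 12.9 and 18.7 CPM in knockdown libraries, against 17.3, 20.9 and 19.3 CPM in control libraries. Knockdown library 2 was the lowest, the groups overlapped, and the log2 fold change was -0.21 (SE 0.18, edgeR adjusted p = 0.593). LINC00998, now SMIM30, encodes a small membrane protein and had 5.86, 13.0 and 6.11 CPM in knockdown libraries, against 5.59, 5.30 and 10.9 CPM in control libraries. One library of each group was high, and the groups overlapped (log2 fold change 0.19, SE 0.39, edgeR adjusted p = 0.842). LINC00862 had 1.90, 2.27 and 2.63 CPM in knockdown libraries, against 1.02, 0.465 and 1.597 CPM in control libraries, without overlap (log2 fold change 1.13, SE 0.40, edgeR adjusted p = 0.230). These 3 are the members of a list of micropeptide loci, of which 0 of 3 tested passed, with 2 above 0 and 1 below. Over all tested genes 1.17% passed.

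LINC01578 is CHASERR, a noncoding RNA that lowers expression of its neighbour CHD2, a chromatin remodeller, in mouse and human cells. It had 25.6, 45.8 and 34.4 CPM in knockdown libraries, against 29.9, 40.3 and 32.9 CPM in control libraries. Knockdown library 2 and control library 2 were high, and the groups overlapped (log2 fold change 0.04, SE 0.22, edgeR adjusted p = 0.946). CHD2, looked at after its values were seen, had 198, 209 and 200 CPM in knockdown libraries, against 97.1, 146 and 77.2 CPM in control libraries. All its knockdown libraries were above its control libraries, and it missed the threshold with a log2 fold change of 0.92 (SE 0.21, edgeR adjusted p = 0.0982).

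LINC00969, LINC00942 and LINC01234 were abundant and missed the test. LINC00969, the host of MIR570, averaged 48.1 ± 6.76 CPM in knockdown libraries and 39.7 ± 5.35 CPM in control libraries (SD, n = 3 each; log2 fold change 0.28, edgeR adjusted p = 0.429). LINC00942 averaged 68.9 ± 6.45 CPM in knockdown libraries and 73.5 ± 0.847 CPM in control libraries (SD, n = 3 each; log2 fold change -0.09, edgeR adjusted p = 0.741). LINC01234, studied in lung and gastric cancer, averaged 36.0 ± 1.69 CPM in knockdown libraries and 36.4 ± 2.45 CPM in control libraries (SD, n = 3 each; log2 fold change -0.01, edgeR adjusted p = 0.967). Of LINC00969's 31-base exonic words, 21.4% occur in other genes, so its counts are uncertain.

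Of 30 listed LINC RNAs studied in cancer cells, 27 were in the table, 19 were tested and 16 were members. Of these 16, 0 passed the edgeR test, 5 were higher (31.2%) and 1 lower (6.25%) without overlap, and the median log2 fold change was 0.24. Over all 171 members 28.1% were higher and 4.09% lower without overlap, and over all tested genes 13.4% and 10.8%, with 1.17% past the test. LINC00963, studied in prostate cancer, had 37.6, 38.1 and 36.5 CPM in knockdown libraries, against 26.4, 31.99 and 28.3 CPM in control libraries. The groups stood apart but the change missed the threshold (log2 fold change 0.37, SE 0.13, edgeR adjusted p = 0.227). LINC00467 was lower in every knockdown library, at 16.8, 19.9 and 18.2 CPM, than in the control libraries, at 20.2, 20.1 and 20.8 CPM (log2 fold change -0.16, edgeR adjusted p = 0.608). LINC00511, which has been tied to the polycomb enzyme EZH2 in lung cancer, averaged 20.2 ± 1.74 CPM in knockdown libraries and 20.6 ± 1.59 CPM in control libraries (SD, n = 3 each; edgeR adjusted p = 0.946). LINC00857, LINC01089 and LINC00339 had log2 fold changes of 0.19, -0.05 and -0.24, each with overlapping groups. LINC00460 and LINC00472, described above, are also in the list and hold its 2 largest log2 fold changes among members, and LINC00662 and LINC01234 are in it too.

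Of 2 tested members listed as signal-inducible, LINC00346 averaged 12.6 ± 0.837 CPM in knockdown libraries and 9.82 ± 1.05 CPM in control libraries, without overlap (SD, n = 3 each; log2 fold change 0.35, edgeR adjusted p = 0.304). LINC00941 averaged 5.52 ± 0.413 CPM in knockdown libraries and 5.32 ± 0.797 CPM in control libraries (SD, n = 3 each; log2 fold change 0.05, edgeR adjusted p = 0.917).

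The 7 members whose knockdown libraries all stood below the control libraries had log2 fold changes of -0.59 to -0.16, and none passed the edgeR test. LINC01963 had 2.75, 3.68 and 3.43 CPM in knockdown libraries, against 4.81, 5.67 and 4.35 CPM in control libraries (log2 fold change -0.59, SE 0.21, edgeR adjusted p = 0.230). It is a single-exon transcript 10742 bases from XRCC5, a DNA repair gene whose log2 fold change was -0.12 (edgeR adjusted p = 0.683). LINC01315 had 0.845, 0.706 and 0.869 CPM in knockdown libraries, against 1.34, 1.24 and 1.02 CPM in control libraries (edgeR adjusted p = 0.361). LINC00476, now ERCC6L2-AS1, overlaps ERCC6L2, a helicase-like gene, and was at -0.43 on the log2 scale (edgeR adjusted p = 0.344) beside 0.32 for ERCC6L2 (edgeR adjusted p = 0.437). LINC00869, at -0.46 (edgeR adjusted p = 0.307), shares 54.6% of its 31-base words with other genes and is uncertain.

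In structure, which the rule did not use, members had a median of 5 exon blocks and 2656 exonic bases. Other lncRNAs had medians of 2 exon blocks and 1693 bases, and protein-coding genes 11 exon blocks and 4900 bases. GC content was alike, at a median of 48.6% in members, 49.2% in other lncRNAs and 49.5% in protein-coding genes. The log2 fold change of members had a Spearman rho of -0.04 with GC content and 0.02 with exonic length across the 171, which share the same libraries. GENCODE 29 calls 129 of the 171 lincRNA, 14 antisense, 14 processed transcript and 4 protein-coding, and RefSeq now gives another symbol to 24.

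The LINC name does not mean that a member stands alone. Only 71 members overlap no other gene of the table, and their median log2 fold change was 0.25, with LINC02331 called. The 100 that overlap another gene had a median of 0.26, with LINC00513 called, and 82 of them overlap a gene on the opposite strand. Of all 171, 9 have their nearest protein-coding start within 2 kb upstream on the opposite strand, so that both genes run away from each other. Their median log2 fold change was -0.04. LINC01024, whose start lies 853 bases from that of PURA but not in this orientation, is not among them. Of these 9, 3 were higher without overlap, or 33.3%, beside 28.1% of all members and 13.4% of all tested genes. They are LINC01125 beside ACTR1B, LINC01534 beside ZNF567 and LINC01547 beside FAM207A. Beside LINC01547, FAM207A itself was lower without overlap, at a mean of 14.6 CPM in knockdown libraries and 19.1 CPM in control libraries (edgeR adjusted p = 0.297). Of all members, 10 share at least 50% of their 31-base words with other genes and 37 share at least 10%.

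The nearest protein-coding gene was tested for 140 members, at a median gap of 11995 bases over the 171. None of these neighbours passed the edgeR test, where 1.17% of all tested genes did. Of the 140, 73 (52.1%) moved with the same sign as the member. Across the 140, the log2 fold changes of member and neighbour had a Pearson r of 0.02 and a Spearman rho of -0.04, all from the same 6 libraries. ZCCHC12, the neighbour of LINC01285, lies far to one side with a log2 fold change of 6.89, fitted from 22, 12 and 11 counts in knockdown libraries and 0 in each control library. Without it the Pearson r was -0.05.

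**Figure D5:**
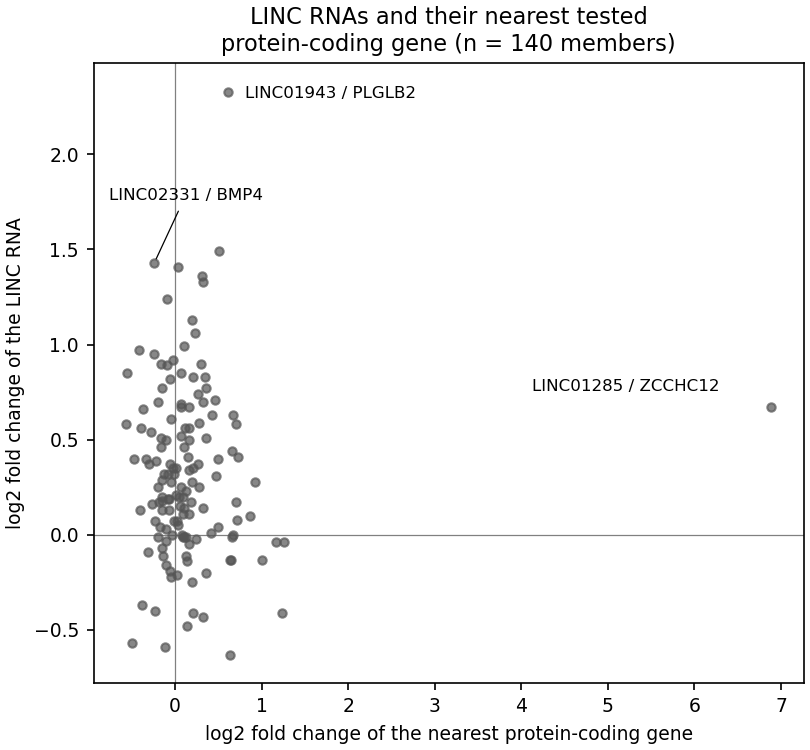
Log2 fold change, knockdown over control, of 140 LINC RNAs (vertical axis) and of their nearest tested protein-coding gene (horizontal axis). Each point is 1 member; LINC02331 with BMP4, LINC01943 with PLGLB2 and LINC01285 with ZCCHC12 are named, and the points show no slope (Pearson r 0.02).

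Genes that act on noncoding RNA were looked at from lists of their own. Of 20 tested genes of the nuclear RNA exosome and its cofactors, 0 passed the edgeR test and the median log2 fold change was -0.03. Of the 20, 10 were above 0 and 10 below. EXOSC8 and EXOSC10 were lower without overlap, or 10%. Over all tested genes 10.8% were lower without overlap and 1.17% passed the test, so these shares were near the background. EXOSC10, a nuclear exonuclease of the exosome, averaged 68 ± 1.08 CPM in knockdown libraries and 80.3 ± 3.12 CPM in control libraries (SD, n = 3 each; log2 fold change -0.24, edgeR adjusted p = 0.321). DIS3, another nuclease of the exosome, averaged 49.9 ± 13 CPM in knockdown libraries and 39.3 ± 4.06 CPM in control libraries, with overlapping groups (SD, n = 3 each; log2 fold change 0.34, edgeR adjusted p = 0.434). Of 16 tested genes of the Integrator complex, which ends transcription of many noncoding RNAs, 0 passed and the median was -0.03. Of 12 tested polycomb and other chromatin partners, 0 passed and the median was -0.06. Of 5 tested nuclear lncRNAs, 0 passed and the median was 0.19, with KCNQ1OT1 at 13.4 ± 2.3 CPM in knockdown libraries and 5.76 ± 1.8 CPM in control libraries (SD, n = 3 each; log2 fold change 1.22, edgeR adjusted p = 0.0654).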

How the data were processed

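RNA of 6 PC9 libraries was sequenced on an Illumina instrument, mapped to a genome and counted per gene, per the labels' protocols; the sources used here give no aligner, counter or use of strand. The authors deposited whole-number counts, TPM and FPKM for 58174 genes. All tests used the deposited counts, levels between genes the deposited TPM, and the deposited FPKM were not used. The submitters' processing notes name hg19, but 56007 of 57836 genes shared with GENCODE 29 (96.8%), and 158 of the 171 members, have the same coordinates as on GRCh38.

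R 4.3.3 and edgeR 4.0.16 served for filtering (filterByExpr, minimum 10), TMM scaling and the quasi-likelihood F-test, and p-values were adjusted after Benjamini and Hochberg over all 19040 tested genes at 0.05. CPM use the TMM-scaled total. Standard errors were derived from the F statistic. The biological coefficient of variation was 22.9%. Scripts were tested on simulated counts. Within groups, pairs of libraries differed by a chi-square of 29.9 to 74 per degree of freedom, so all 6 were counted. Deviations of same-numbered libraries from their group means had correlations of 0.01, -0.08 and -0.03, and the numbers were not taken to pair libraries. Single genes can still share a pattern. OIP5-AS1 had 41.6, 62.6 and 5.17 CPM in knockdown libraries 1 to 3, against 51, 44.8 and 6.81 CPM in control libraries 1 to 3. Library 3 was thus low in both groups for this gene, and the reason was not tested.

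Members, gene lists and tests were chosen with earlier results of these data known. Named were members past the test, the 6 of highest TPM, the 4 largest rises and falls without overlap, members of the micropeptide and signal-inducible lists, and the 8 highest of the cancer list; other genes named were chosen after their values were seen. Gene types, exons and 31-base words came from GENCODE 29, promoters from RefSeq on GRCh38.p14. DESeq2 1.42.0, limma 3.58.1 (voom), other scalings and filters, the replicate block, removal of the abundance trend and leaving out each library were tried as alternatives, and the TPM scale was added after seeing the data. Python 3.11.15 with matplotlib 3.10.9 drew the figures.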

Additional observations from a re-analysis of the deposited data

How the results depend on the processing

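The number of members past the threshold (2, both higher) was 1 with DESeq2 size factors, no filter, limma-voom, the replicate block, removal of the abundance trend, an adjusted p of 0.01, or only the 71 members that overlap no other gene. It was 1 to 1 when each library was left out, 3 of 123 members with a stricter filter, 7 with library size only, 12 with DESeq2 and 8 over all 275 tested LINC-numbered genes. The count of lower members was 0 in each of the alternatives run over the members. Over all tested genes the count (223) was 147 with no filter, 143 with a stricter filter, 701 with DESeq2, 34 with the replicate block, 117 with the abundance trend removed, 45 at an adjusted p of 0.01, and 64 to 114 leaving out each library. The block used replicate numbers that were not taken to pair the libraries, so its counts say nothing of a weaker effect.

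The members' median log2 fold change (0.25) was 0.22 with DESeq2 size factors and with the stricter filter, 0.23 with DESeq2, 0.27 with upper-quartile scaling, 0.28 with the block, 0.29 with limma-voom, 0.38 with library size only, 0.49 in the deposited TPM, 0.10 with the abundance trend removed, 0.35 over all tested LINC-numbered genes and 0.21 to 0.30 leaving out each library. With the trend removed 101 members were above 0, and the members' median stood 0.10 to 0.26 above that of all tested genes across the settings fitted to all genes.

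Among named members, signs turned for 7 that were within 0.2 of 0 and missed the test. LINC00511 was 0.10 with library size only and -0.14 (without knockdown library 1) to 0.04 (without control library 2) leaving out each library. LINC00941 was -0.07 with the trend removed, -0.01 without knockdown library 3 and -0.07 without control library 2. LINC00942 was 0.03 with library size only, and LINC00998 was -0.29 (without knockdown library 2) to 0.61 (without control library 3). LINC01089 was 0.08 with library size only and 0.02 (without knockdown library 1) to -0.16 (without knockdown library 3). LINC01234 was 0.00 with upper-quartile scaling, 0.11 with library size only, 0.01 with the stricter filter, 0.00 without knockdown library 3, 0.02 without control library 1 and 0.00 without control library 3. LINC01578 was -0.20 (without knockdown library 2) to 0.17 (without knockdown library 1). The causes were not tested.

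With 3 libraries a group, members near 1 CPM rest on few counts, which limits their precision.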
